A study of Mus musculus with 9 samples.

Results

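Collagens are the structural proteins of connective tissue, each built from 3 chains that wind into a triple helix. The genes described here are the collagen chain genes of the mouse. A gene was included if its symbol consists of Col, the number of the collagen type, the letter a and the number of the chain. All 44 symbols of that form in the array's annotation were measured, out of 19938 genes with a named probeset (the group of probes that reports a gene), and where a gene had several probesets the one with the strongest average signal was used. The cells were urogenital sinus mesenchymal cells, the connective tissue precursors of the prostate, from male CD-1 fetuses on gestation day 17, used in first-passage primary culture. Cells in every group were held for 3 days in serum stripped of hormones with 690 pM dihydrotestosterone (DHT, an androgen) and were then given ethanol vehicle, 10 pM estradiol (E2) or 100 pM E2 for 4 days, with DHT throughout. There were 3 arrays per group, and the comparison asked which collagen genes responded to low E2 concentrations while the androgen was held constant.

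Mesenchymal cells are the main source of collagen in most organs. Fibrillar collagens form the load-bearing fibrils, fibril-associated collagens coat and space them, type IV collagen forms the sheet of the basement membrane beneath epithelia, type VI collagen forms beaded filaments around cells, and short-chain collagens such as type VIII form fine lattices. New chains are hydroxylated and folded in the endoplasmic reticulum, trimmed by proteases after secretion, cross-linked, bound by cell surface receptors and finally degraded. In the developing prostate the basement membrane part of this matrix lies between the mesenchyme and the epithelial buds that grow into the mesenchyme.

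Of the collagen genes whose expression changed with 100 pM E2, 4 have an annotated RefSeq promoter, and these are shown because the genes with the opposite responses, Col8a1 and Col8a2, encode chains of the same collagen type. The windows are the 250 bases before the annotated start, on the strand of the gene, in mouse build GRCm38.p6: Col8a1 at chr16:57754738-57754987 (minus strand), Col8a2 at chr4:126286544-126286793 (plus strand), Col15a1 at chr4:47207762-47208011 (plus strand) and Col3a1 at chr1:45311288-45311537 (plus strand). Capitals mark every match on either strand to 7 motifs that were searched, which were the full estrogen response element (GGTCA and its inverted repeat, 3 bases apart), the single arm GGTCA, the GC box GGGCGG, the TATA box TATAAA, the AP-1 site TGANTCA, the CCAAT box CCAAT and the E box CACGTG. Arms inside a full element were counted under both names.
Col8a1: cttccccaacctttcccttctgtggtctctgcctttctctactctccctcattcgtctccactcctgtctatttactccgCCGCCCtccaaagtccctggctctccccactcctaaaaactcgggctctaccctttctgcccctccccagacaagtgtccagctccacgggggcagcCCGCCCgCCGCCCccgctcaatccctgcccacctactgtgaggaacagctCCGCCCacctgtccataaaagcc
Col8a2: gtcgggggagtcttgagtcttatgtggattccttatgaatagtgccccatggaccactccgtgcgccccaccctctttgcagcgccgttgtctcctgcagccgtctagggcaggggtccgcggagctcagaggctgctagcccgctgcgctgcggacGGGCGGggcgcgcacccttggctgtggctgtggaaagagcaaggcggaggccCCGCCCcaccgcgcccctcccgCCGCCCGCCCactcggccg
Col15a1: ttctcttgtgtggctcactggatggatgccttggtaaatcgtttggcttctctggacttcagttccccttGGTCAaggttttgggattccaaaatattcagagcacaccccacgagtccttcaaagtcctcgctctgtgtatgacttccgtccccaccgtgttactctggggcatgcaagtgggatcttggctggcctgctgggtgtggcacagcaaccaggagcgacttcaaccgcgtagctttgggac
Col3a1: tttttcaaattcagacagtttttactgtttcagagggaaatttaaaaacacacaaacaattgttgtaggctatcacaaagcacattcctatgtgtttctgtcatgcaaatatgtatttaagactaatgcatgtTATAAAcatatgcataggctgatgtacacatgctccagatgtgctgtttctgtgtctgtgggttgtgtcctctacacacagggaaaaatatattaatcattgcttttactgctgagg

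The Col8a1 and Col8a2 windows each held 4 GC boxes, which overlap at the end of the Col8a2 window. The Col8a1 window was 60.8% G or C and the Col8a2 window 70.0%, against a median of 52.4% over the 32851 promoter windows of the table. The Col15a1 window held a single GGTCA arm, at position -180 from the start, and the start used for it lies inside the annotated span of the gene. The Col3a1 window was 35.2% G or C and held the letters TATAAA at position -117. Over the 38 windows of 35 collagen genes, the GC box was present in 22 windows (57.9%, against 32.7% of all windows), the GGTCA arm in 14 (36.8%, against 35.2%) and the full estrogen response element in 0 (against 0.0639%). A match describes letters in the window and not a bound site. Col14a1, which fell the most, was among the 9 collagen genes without a window in the table.

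The 9 arrays had like scales, with median log2 signals from 6.175 to 6.202, and none of the 44 collagen genes was among the dimmest 30% of genes, whose mean lay at or below a log2 signal of 5.46. Checked against markers, the cells had strong mesenchymal signals, with vehicle means of 13.06 for Fn1 and 12.98 for Vim on the log2 signal scale, and 10 of 11 mesenchymal and all 9 smooth muscle markers (Acta2 at 13.36) lay above the array medians. Of 13 epithelial markers 9 lay below them, among them Epcam (5.18) and Cdh1 (5.34), and Krt18 (7.39), Krt8 (6.56), Krt19 (6.55) and Cldn4 (6.51) lay above. Of 12 endothelial markers 8 lay below, among them Pecam1 (5.44) and Cdh5 (5.31), while Kdr (7.87) and Emcn (7.04) were the highest of 4 above. Of 10 chondrocyte markers 9 lay below, with Acan at 5.20. Between vehicle and 100 pM E2 the summed linear signal of 12 macrophage markers went from between 697.6 and 764.9 to between 593.2 and 613.4, with all 12 lower and C1qb passing the test. The sum over 13 epithelial markers went from between 809.8 and 846.1 to between 869.2 and 925, with none passing. Krt18 alone went from between 164.5 and 172.9 to between 190.1 and 251.6 and passed between 100 pM and 10 pM E2 (0.57, adjusted p = 0.0428), while the sum over the other 12 overlapped between vehicle (637 to 680.3) and 100 pM E2 (630.2 to 721.3). The mesenchymal markers Pdgfra (-0.45, adjusted p = 0.00359), Lum (-0.41, 0.0384) and Dcn (-0.25, 0.0421) fell with 100 pM E2 against vehicle, with overlapping sums over the 11 (24320 to 25010 with vehicle and 24300 to 25300 with 100 pM E2). This sum of linear signals is carried mostly by the brightest markers, Fn1 and Vim. It could not register the falls of Pdgfra (vehicle mean 9.38) or Lum (8.55). Of the endothelial markers Kdr fell (-0.98, adjusted p = 0.00359) and Emcn rose (0.82, 0.00399), and the sums over the 12 also overlapped (933.7 to 953.9 and 900.6 to 935.2). Of 8 neural markers 7 lay below the array medians. Their sum was 426 to 439.8 with vehicle and 443.6 to 465.2 with 100 pM E2, with 6 markers higher, 2 lower and none passing. The sum over 10 chondrocyte markers was 435.2 to 449.4 with vehicle and 464.7 to 472.5 with 10 pM E2, again with none passing. With 100 pM E2 it overlapped with vehicle (433.9 to 476.9). The part of these markers in the collagen results was not tested, and in such bulk samples fewer cells of a type and less RNA per cell cannot be told apart. Nothing in the labels shows that arrays of a group came from different cultures. Each p therefore rests on the scatter among these arrays alone, which could be technical.

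Exposure to 100 pM E2 changed 5 of the 44 collagen genes relative to vehicle, in limma's test with Benjamini-Hochberg adjustment over all 19938 genes at an adjusted p below 0.05. That is 11.4% of the collagen genes, where 1.13% of all genes passed. The shares over all genes include the dimmest 30%, among which there was no collagen gene. With those left out the same 5 collagen genes passed, and 343 of all genes did, against 226 with them included. Col8a1 rose, and Col14a1, Col15a1, Col3a1 and Col8a2 fell (over all genes, 0.446% rose and 0.687% fell). All changes were modest, between a rise of 16.5% and a fall to 0.669 of the vehicle level. No collagen gene passed between 10 pM E2 and vehicle, and 0% of all genes did. Between 100 pM and 10 pM E2, 2 collagen genes passed, Col8a1 (higher at 100 pM) and Col14a1 (lower), against 0.833% of all genes (0.226% higher and 0.607% lower). The vehicle arrays serve both dose comparisons and the 100 pM arrays serve 2 of the 3, so these counts are not independent of each other. The count of 5 was between 1 and 4 as single arrays were left out, 1 (Col14a1) when the arrays numbered 2 of the vehicle and 100 pM groups were both left out, and 0 in a limma fit of the vehicle and 100 pM arrays alone, in which 10 of all genes passed.

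**Figure D1:**
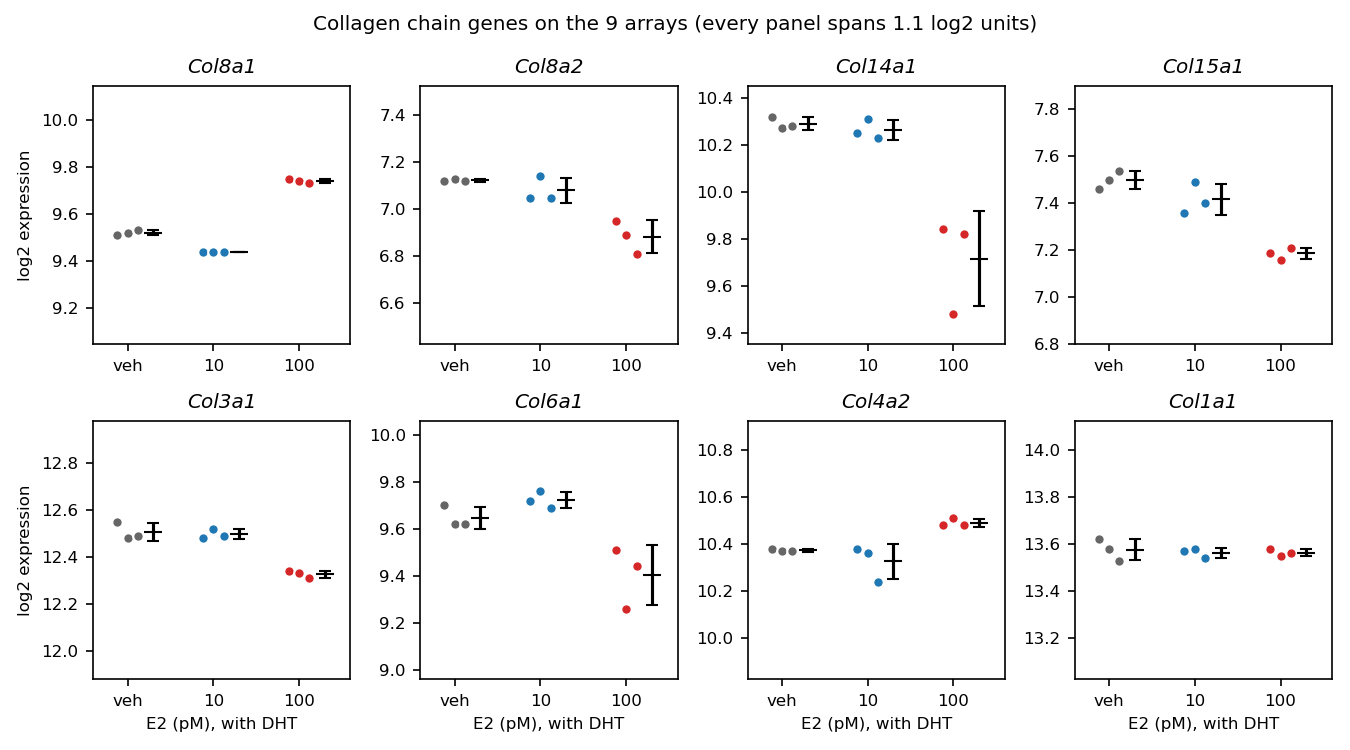
Log2 expression of 8 collagen genes on each of the 9 arrays (dots; grey vehicle, blue 10 pM E2, red 100 pM E2), with the group mean and SD beside them and every vertical axis spanning 1.1 log2 units. The 100 pM arrays lie above all others for Col8a1 and Col4a2 and below all others for Col8a2, Col14a1, Col15a1, Col3a1 and Col6a1, while those of Col1a1 lie among the rest.

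Col8a1 and Col8a2 encode the chains of type VIII collagen, a short-chain collagen of vessel walls and specialised basement membranes. The log2 signals of Col8a1 were 9.51, 9.52 and 9.53 with vehicle, 9.44 on each array with 10 pM E2, and 9.75, 9.74 and 9.73 with 100 pM E2. The groups did not overlap, and the 10 pM arrays were the lowest and the 100 pM arrays the highest. The rise from vehicle to 100 pM E2 was 0.22 ± 0.03 on the log2 scale (SE of the fit, n = 3 per group; 1.165-fold, 95% interval 0.15 to 0.29, limma adjusted p = 0.0116), and that from 10 pM to 100 pM was 0.30 ± 0.03 (adjusted p = 0.00571). The difference between 10 pM E2 and vehicle was -0.08 ± 0.03, with an adjusted p of 1. Without the first vehicle array the change at 100 pM against vehicle no longer passed (adjusted p = 0.0573), while its size stayed between 0.21 and 0.23 whichever array was left out. The comparison with 10 pM passed with each array left out (adjusted p from 0.0129 to 0.0409).

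Col8a2, the gene of the other type VIII chain, went the other way. Its log2 signals were 7.12, 7.13 and 7.12 with vehicle, 7.05, 7.14 and 7.05 with 10 pM E2, and 6.95, 6.89 and 6.81 with 100 pM E2. Every 100 pM array was below every other array, while the 10 pM and vehicle arrays overlapped. The fall was by 0.24 ± 0.04 on the log2 scale against vehicle (adjusted p = 0.0415), and it passed only with the first 100 pM array left out and failed with any of the other 8 left out (adjusted p up to 0.136), with a size from -0.27 to -0.20. The difference from 10 pM was -0.20 ± 0.04, which did not pass (adjusted p = 0.0972). Col10a1, the chain gene of the remaining short-chain collagen, typical of growth plate cartilage, differed by 0.11 ± 0.06 at 100 pM against vehicle with overlapping arrays (adjusted p = 0.545).

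Col14a1 showed the largest change of any collagen gene in the contrast of 100 pM E2 with vehicle. It encodes a fibril-associated collagen that binds to the surface of fibrils. Its log2 signals were 10.32, 10.27 and 10.28 with vehicle, 10.25, 10.31 and 10.23 with 10 pM E2, and 9.84, 9.48 and 9.82 with 100 pM E2. The 100 pM arrays were all lower than the rest and the second of them was the lowest, whereas vehicle and 10 pM arrays overlapped. It fell by 0.58 ± 0.09 on the log2 scale against vehicle, to 0.669 of the vehicle level (95% interval of the log2 difference -0.77 to -0.39, adjusted p = 0.0146), and by 0.55 ± 0.09 against 10 pM (adjusted p = 0.0238). The size ranged from -0.64 to -0.46 as single arrays were left out, and the call against vehicle was lost without any 1 of the vehicle arrays (adjusted p = 0.0799, 0.059 and 0.0704). The call against 10 pM was lost in 6 of 9 cases.

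Col12a1, the closest relative of Col14a1 in structure, had log2 signals of 12.34, 12.32 and 12.39 with vehicle, 12.30, 12.38 and 12.31 with 10 pM E2, and 12.18, 11.94 and 12.18 with 100 pM E2. Its 100 pM arrays were again all below the others, and the second was again the lowest. The difference from vehicle was -0.25 ± 0.07 and did not pass (adjusted p = 0.158). The other 7 fibril-associated genes (Col9a1, Col9a2, Col9a3, Col16a1, Col19a1, Col20a1 and Col22a1) lay between -0.04 and 0.06, with SEs up to 0.11, and overlapped between groups. Over the 9 genes of the class the median difference was -0.02.

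Col15a1 encodes a multiplexin, a collagen carrying glycosaminoglycan chains that sits where basement membranes meet the fibrils beneath. Its log2 signals were 7.46, 7.50 and 7.54 with vehicle, 7.36, 7.49 and 7.40 with 10 pM E2, and 7.19, 7.16 and 7.21 with 100 pM E2. With 100 pM E2 the values were the lowest and did not overlap with either other group. It fell by 0.32 ± 0.04 on the log2 scale against vehicle (adjusted p = 0.0103), with a size between -0.34 and -0.30 as single arrays were left out, and the call was lost only without the third vehicle array (adjusted p = 0.0512) among these. The difference from 10 pM was -0.23 ± 0.04 (adjusted p = 0.051). Col18a1, the other multiplexin and the source of endostatin, differed by 0.07 ± 0.04 from vehicle, with overlapping arrays (adjusted p = 0.613).

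Among the 11 fibrillar collagen genes, Col3a1 was the 1 that passed against vehicle. Type III collagen, made of 3 chains from this gene, is the fine fibrillar collagen of soft and distensible organs. Its log2 signals were 12.55, 12.48 and 12.49 with vehicle, 12.48, 12.52 and 12.49 with 10 pM E2, and 12.34, 12.33 and 12.31 with 100 pM E2. All values with 100 pM E2 were below those of both other groups. It fell by 0.18 ± 0.03 on the log2 scale against vehicle (adjusted p = 0.0469), a call that was lost with each of the 9 arrays left out (adjusted p from 0.0736 to 0.154) and also with median centring (0.0754) or quantile normalization (0.0787), while the size stayed between -0.20 and -0.16. The difference from 10 pM was -0.17 ± 0.03 (adjusted p = 0.0662).

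The genes of type I collagen, the most abundant fibrillar collagen of connective tissue, showed no detectable difference. Col1a1 had log2 signals of 13.62, 13.58 and 13.53 with vehicle, 13.57, 13.58 and 13.54 with 10 pM E2, and 13.58, 13.55 and 13.56 with 100 pM E2. Col1a2 had 13.40, 13.40 and 13.34 with vehicle, 13.40, 13.41 and 13.34 with 10 pM E2, and 13.38, 13.37 and 13.37 with 100 pM E2. The groups overlapped for both genes. The difference between 100 pM E2 and vehicle was -0.01 for each, with a 95% interval from -0.09 to 0.07 (adjusted p = 0.928 for Col1a1 and 0.974 for Col1a2), so changes beyond that range were not seen on these arrays. The highest value of any probeset on any array was 14.51.

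Type V collagen, which starts and limits fibril growth, has 3 chain genes. Col5a3 had log2 signals of 7.48, 7.42 and 7.44 with vehicle, 7.50, 7.47 and 7.45 with 10 pM E2, and 7.55, 7.60 and 7.55 with 100 pM E2. Col5a2 had 11.67, 11.63 and 11.66 with vehicle, 11.66, 11.67 and 11.63 with 10 pM E2, and 11.58, 11.57 and 11.62 with 100 pM E2. The 100 pM arrays of Col5a3 were above, and those of Col5a2 below, all other arrays, but neither difference from vehicle passed (0.12 ± 0.03, adjusted p = 0.199, and -0.06 ± 0.03, adjusted p = 0.549). Col5a1 had 10.32 on each vehicle array, 10.32, 10.39 and 10.28 with 10 pM E2, and 10.31, 10.32 and 10.33 with 100 pM E2, with overlapping groups and a 95% interval of the 100 pM difference from -0.08 to 0.08. Col24a1, a minor fibrillar collagen, had 7.12, 7.06 and 7.10 with vehicle, 7.11, 7.06 and 7.06 with 10 pM E2, and 7.06, 6.90 and 6.93 with 100 pM E2. Its 100 pM arrays were the lowest, and the difference from vehicle was -0.13 ± 0.05 (adjusted p = 0.338). The remaining fibrillar genes (Col2a1, Col11a1, Col11a2 and Col27a1) overlapped between groups. The median difference of the 11 genes was -0.01.

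Type VI collagen forms the beaded filaments of the pericellular matrix, and its main chains come from Col6a1, Col6a2 and Col6a3. Col6a1 had log2 signals of 9.70, 9.62 and 9.62 with vehicle, 9.72, 9.76 and 9.69 with 10 pM E2, and 9.51, 9.26 and 9.44 with 100 pM E2. Col6a2 had 9.02, 8.91 and 8.95 with vehicle, 9.07, 9.11 and 8.97 with 10 pM E2, and 8.87, 8.63 and 8.88 with 100 pM E2. Col6a3 had 10.70, 10.59 and 10.59 with vehicle, 10.66, 10.66 and 10.59 with 10 pM E2, and 10.47, 10.38 and 10.57 with 100 pM E2. For all 3 genes every 100 pM array lay below every vehicle and 10 pM array, and the second 100 pM array was the lowest. None passed against vehicle, with differences of -0.24 ± 0.06 for Col6a1 (adjusted p = 0.143), -0.17 ± 0.07 for Col6a2 (0.431) and -0.15 ± 0.06 for Col6a3 (0.352). Against 10 pM the differences were -0.32 ± 0.06 (adjusted p = 0.0604), -0.26 ± 0.07 (0.201) and -0.16 ± 0.06 (0.341) in the same order. Leaving out the second 100 pM array reduced the difference from vehicle to -0.17 for Col6a1, -0.09 for Col6a2 and -0.10 for Col6a3. The genes of the other type VI chains, Col6a4, Col6a5 and Col6a6, which lie next to each other on chromosome 9, overlapped between groups, with differences between -0.09 and 0.06.

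**Figure D2:**
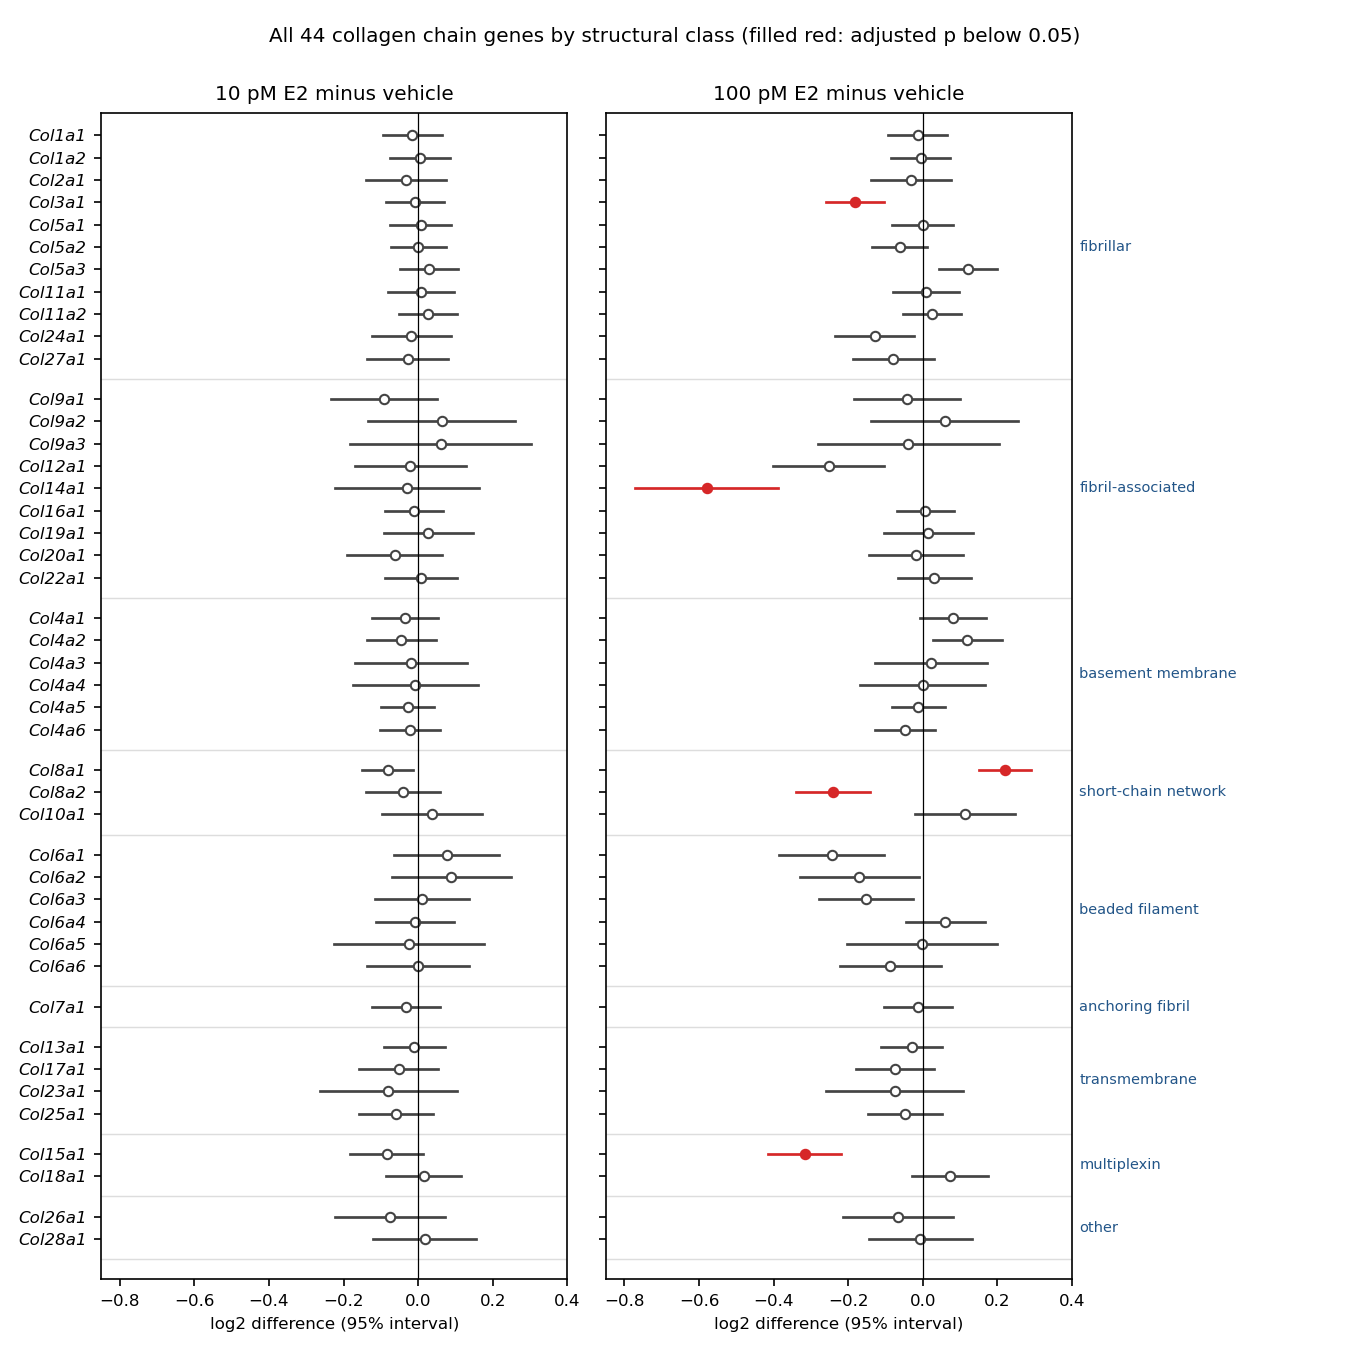
Log2 difference with its 95% interval for all 44 collagen genes, grouped by structural class, for 10 pM E2 minus vehicle (left) and 100 pM E2 minus vehicle (right), with red filled points at an adjusted p below 0.05. At 10 pM all differences lie between -0.09 and 0.09, and at 100 pM Col8a1 (0.22) is the called gene to the right of 0 and Col14a1 (-0.58) lies farthest to the left.

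None of the 6 basement membrane collagen genes passed, and 3 had 100 pM differences from vehicle above 0 and 3 below. Col4a1 and Col4a2, which encode the main chains of type IV collagen and lie next to each other on chromosome 8, were both highest with 100 pM E2. Col4a1 had log2 signals of 10.24, 10.26 and 10.27 with vehicle, 10.24, 10.27 and 10.15 with 10 pM E2, and 10.36, 10.33 and 10.33 with 100 pM E2. Col4a2 had 10.38, 10.37 and 10.37 with vehicle, 10.38, 10.36 and 10.24 with 10 pM E2, and 10.48, 10.51 and 10.48 with 100 pM E2. Both genes were higher on every 100 pM array than on any other array, but the differences from vehicle, 0.08 ± 0.04 (adjusted p = 0.51) and 0.12 ± 0.04 (adjusted p = 0.306), did not pass. The remaining type IV genes, Col4a3, Col4a4, Col4a5 and Col4a6, differed by between -0.05 and 0.02 and overlapped between groups.

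No gene of the anchoring fibril, transmembrane and unclassified groups passed. Col7a1, the anchoring fibril collagen of skin, had log2 signals of 7.73, 7.73 and 7.65 with vehicle, 7.69, 7.64 and 7.67 with 10 pM E2, and 7.72, 7.72 and 7.63 with 100 pM E2. Col17a1, a transmembrane collagen of hemidesmosomes and the gene with the smallest p of its class, had 6.43, 6.48 and 6.41 with vehicle, 6.41, 6.34 and 6.41 with 10 pM E2, and 6.41, 6.41 and 6.28 with 100 pM E2. Col26a1 had 6.91, 7.02 and 6.91 with vehicle, 6.91, 6.79 and 6.91 with 10 pM E2, and 6.91, 6.98 and 6.75 with 100 pM E2. The groups overlapped for all 3 genes. The 4 transmembrane collagen genes all had 100 pM differences below 0, between -0.07 and -0.03, and the anchoring fibril gene and the 2 unclassified genes lay between -0.07 and -0.01.

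Across the 44 collagen genes, 14 had non-overlapping arrays between 100 pM E2 and vehicle (31.8%, where 12.5% of all genes had), 4 higher at 100 pM (9.09%, against 6.61%) and 10 lower (22.7%, against 5.89%), and 12 had an unadjusted p below 0.05 (27.3%, against 10.9%). The same 14 genes had non-overlapping arrays between 100 pM and 10 pM E2 (against 12.3% of all genes; 5.89% higher and 6.42% lower), a comparison with the same 100 pM arrays, and 13 had an unadjusted p below 0.05 there (29.5%, against 10.2%). Between 10 pM E2 and vehicle Col8a1 alone did not overlap, with its 10 pM arrays lower (2.27%, against 5.93% in either direction and 2.19% lower), and it was also the single gene at an unadjusted p below 0.05 there (against 3.54% of all genes). The signs of the differences depended on the scaling. At 100 pM 14 of 44 were above 0, where 53% of all genes were, but after median centring 22 of 44 were (61.8% of all genes), and after quantile normalization 18 of 44 (56.7%). Some of these genes are neighbours on the chromosome. Col3a1 and Col5a2 are adjacent protein-coding genes on chromosome 1 and differed by -0.18 and -0.06, and Col6a1 and Col6a2 are adjacent on chromosome 10 and differed by -0.24 and -0.17. The median over the 39 collagen genes that did not pass was -0.01, with a range from -0.25 to 0.12, and that over all genes was 0.00.

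Non-monotonic responses were a theme of the study, so the 10 pM mean was set against the mean of vehicle and 100 pM E2. No collagen gene passed this contrast in limma, where 1 of 19938 genes (0.00502%) did. At an unadjusted p below 0.05 there were 6 collagen genes (13.6%, against 5.61% of all genes), namely Col14a1, Col3a1, Col4a2, Col6a1, Col6a2 and Col8a1. The contrast does not require the 10 pM mean to lie outside the other groups, so these are not shares of non-monotonic genes. The means of Col14a1 and Col3a1 fell in order of dose, with the larger step between 10 pM and 100 pM E2. The 10 pM mean of Col8a1 lay below both others, with a difference of -0.19 from their mean (adjusted p = 0.166). For Col6a1 and Col6a2 the 10 pM mean was the highest of the groups, at 0.20 and 0.17 above the mean of the other groups (adjusted p = 0.598 and 0.804). By the order of the group means alone, with no test, 17 collagen genes were lowest at 10 pM (38.6%, against 29.1% of all genes), and the count was also 17 after median centring and after quantile normalization. Another 12 were highest at 10 pM (27.3%, against 32.1%), 5 went up in order of dose (11.4%, against 21.4%) and 10 went down in that order (22.7%, against 17.4%), and these 3 counts became 7, 10 and 10 with median centring and 7, 7 and 13 with quantile normalization. In the F test over the 3 groups, 13 had an unadjusted p below 0.05 (29.5%, against 9.15%) and 3 collagen genes passed, Col8a1 (adjusted p = 0.00615), Col14a1 (0.0205) and Col15a1 (0.0208), against 0.843% of all genes. By the methods' one-way analysis of variance at an unadjusted p below 0.01, 8 collagen genes passed (18.2%, against 2.66%), which were Col14a1, Col15a1, Col3a1, Col4a2, Col5a3, Col6a1, Col8a1 and Col8a2, and after adjustment only Col8a1 remained below 0.05, as 1 of 19938 genes (0.00502%).

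Chain genes of the same collagen type can be compared within each array, where a difference shows unequal change and not which chain moved. The arrays do not show which chains assemble together. For Col8a1 minus Col8a2 the log2 difference was 2.39, 2.40 and 2.41 with vehicle, 2.39, 2.30 and 2.38 with 10 pM E2, and 2.81, 2.85 and 2.92 with 100 pM E2. The 100 pM arrays stood clear of all others, and the difference between chains widened by 0.46 against vehicle (exact two-sided permutation test, p = 0.1, the smallest that 3 arrays against 3 can give; 0.233 after adjustment over the 7 pairs). Of the other pairs, Col5a1 minus Col5a2, which is below 0, shifted by 0.06 toward 0 and Col6a1 minus Col6a2 shifted by -0.07, both with non-overlapping arrays and the same exact permutation p of 0.1. Col1a1 minus Col1a2 (-0.01), Col4a1 minus Col4a2 (-0.04), Col6a1 minus Col6a3 (-0.09) and Col6a2 minus Col6a3 (-0.02) overlapped between vehicle and 100 pM E2, with exact permutation p from 0.2 to 0.8. No pair can pass the threshold with this number of arrays.

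**Figure D3:**
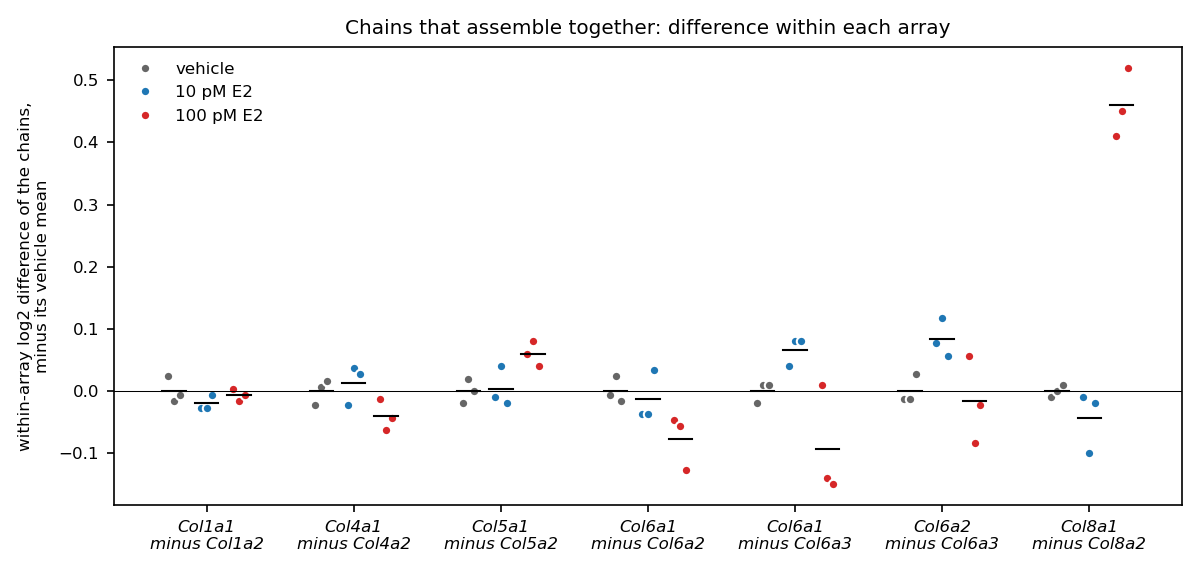
Log2 difference between chains of the same collagen within each array, set to 0 at its vehicle mean, for 7 chain pairs (dots are arrays, lines are group means). The Col8a1 and Col8a2 pair separates at 100 pM E2, by a mean of 0.46, while the group means of the other 6 pairs stay within 0.1 of the vehicle mean.

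Genes that handle collagen chains were counted as well, from lists by role that hold 62 genes, of which 57 were measured. Against vehicle 3 rose and 1 fell with 100 pM E2, against 0.446% of all genes higher and 0.687% lower, with a median difference of -0.01 over the 57, and 0 passed at 10 pM E2. The largest rise was that of Tll1, a tolloid-like protease that trims the ends of procollagens, with log2 signals of 8.25, 8.31 and 8.33 with vehicle, 8.33, 8.42 and 8.45 with 10 pM E2, and 8.84, 9.13 and 8.88 with 100 pM E2. Its 100 pM arrays stood above all others, by 0.65 ± 0.07 against vehicle (adjusted p = 0.00399) and 0.55 ± 0.07 against 10 pM (adjusted p = 0.0134).

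Of 9 receptor genes for collagen, Itga1 fell and Itga2 rose against vehicle, 7 did not pass, and the median difference was 0.00. Itga1, the α1 subunit of an integrin that binds collagen, had log2 signals of 9.15, 9.23 and 9.11 with vehicle, 9.07, 9.16 and 9.06 with 10 pM E2, and 8.62, 8.37 and 8.53 with 100 pM E2. All 100 pM values were below the others, and it fell by 0.66 ± 0.07 against vehicle (adjusted p = 0.00359) and by 0.59 ± 0.07 against 10 pM (adjusted p = 0.00764). Itga2, the α2 subunit of another collagen-binding integrin, rose by 0.29 ± 0.05 against vehicle (adjusted p = 0.0242), with 7.67, 7.60 and 7.63 on the vehicle arrays, 7.71, 7.81 and 7.79 with 10 pM E2, and 7.88, 7.88 and 8.00 with 100 pM E2. Loxl3, a lysyl oxidase family enzyme that cross-links fibres, rose by 0.20 ± 0.04 (adjusted p = 0.0473), with 9.05, 9.11 and 9.03 on the vehicle arrays, 9.11, 9.06 and 9.04 with 10 pM E2, and 9.24, 9.28 and 9.26 with 100 pM E2. For both genes the 100 pM arrays were the highest and did not overlap with the other groups.

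Of 15 hydroxylation and glycosylation genes, 3 passed between 100 pM and 10 pM E2, all lower at 100 pM (over all genes 0.833% passed and 0.607% were lower), namely P4ha2 (-0.47 ± 0.09, adjusted p = 0.0492), Plod1 (-0.38 ± 0.07, adjusted p = 0.0465) and P4ha1 (-0.36 ± 0.06, adjusted p = 0.0386), which encode prolyl hydroxylase and lysyl hydroxylase subunits. Of the 12 others, 8 had differences below 0 and 4 above 0, among the latter the prolyl 3-hydroxylase family genes P3h1 and P3h4 (0.05 each) and the prolyl 4-hydroxylase gene P4ha3 (0.10). Against vehicle none of the 3 passed, with differences between -0.27 and -0.25. For all 3 the second 100 pM array was the lowest, as in the 100 pM signals of P4ha2 (8.86, 8.50 and 8.82) and Plod1 (9.64, 9.39 and 9.59). The calls of the handling genes, among them Loxl3, were not recomputed with arrays left out or under other settings. The log2 signals of P4ha1 were 11.28, 11.26 and 11.28 with vehicle, 11.33, 11.43 and 11.39 with 10 pM E2, and 11.05, 10.87 and 11.13 with 100 pM E2, so the 10 pM arrays were the highest and the 100 pM arrays the lowest. Among 11 folding and export genes none passed, and the one with the smallest p of the F test was Ero1a, which reoxidises disulfide-forming enzymes (-0.38 ± 0.08 against 10 pM, adjusted p = 0.0995). Among 9 degradation genes none passed either, and the smallest p was that of Mmp14, a membrane-anchored collagenase (-0.17 ± 0.03 against vehicle, adjusted p = 0.0621).

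**Figure D4:**
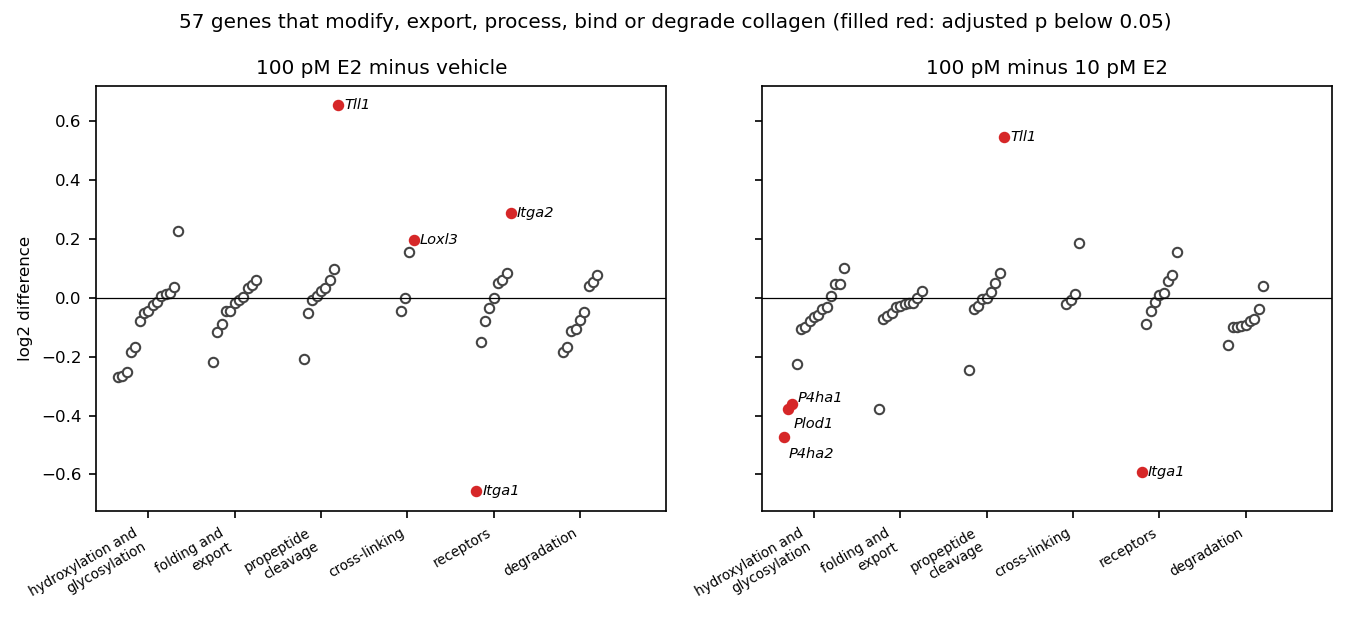
Log2 differences of 57 genes that modify, export, process, cross-link, bind or degrade collagen, by role, for 100 pM E2 minus vehicle (left) and 100 pM minus 10 pM E2 (right); points within a role are ordered by value and red filled points passed at an adjusted p below 0.05. Tll1 and Itga1 stand apart in both panels, and P4ha1, P4ha2 and Plod1 are called in the right panel alone.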

How the data were processed

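Expression was measured on Affymetrix Mouse Gene 1.0 ST arrays. The authors deposited log2 expression values per probeset, made from scanned images with GCOS and Gene Expression Console, and the normalization, tool versions and probe annotation build are not given in the sources used here. The log2 scale was read from the values, and no scanner files were used here. The table has 35556 probesets. A single gene symbol was attached to 21789 of them, of which 21698 matched the mouse gene table, and the 1621 with several symbols and 12146 without a listed symbol were not used for genes. Each gene was represented by its brightest probeset (999 genes had more than 1, among them Col6a5 and Col6a6), which gave 19938 genes with no filter on low values. The number of arrays limits the precision.

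Groups and replicate numbers came from the sample titles. Group means were fitted jointly for all genes over the 9 arrays (lmFit and eBayes of limma 3.58.1, run in R 4.3.3), with two-sided tests, Benjamini-Hochberg adjustment over 19938 genes and a threshold of 0.05. Errors of differences are SEs of that fit. Replicate numbers were not used to pair the arrays. Over all genes, r of deviations from group means ran from -0.112 to 0.2 over 9 pairs of same-numbered arrays. Between differently numbered arrays it ran from -0.189 to 0.168. With 3 arrays per group these values cannot show whether same-numbered arrays shared a batch. Chain pairs were tested by exact permutation with scipy 1.17.1. The fit was tested on simulated data. Promoter windows came from RefSeq (GRCm38.p6).

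The collagen genes, the lists of collagen-handling genes and the markers of mesenchymal, epithelial, endothelial, macrophage, neural, cartilage and smooth muscle cells were chosen with earlier results of these data known. Fkbp10, Adamts2, Loxl2, Gp6 and Mmp15 were listed but had no named probeset here. Values on every array are given for collagen genes that passed any test, had an unadjusted F test p below 0.05, had the smallest p of their class or belonged to a tested chain pair. Of the handling genes those that passed are named, or the one with the smallest p where a role had none. Extracellular matrix is a theme that the study itself named for these samples, so counts of collagen genes are not independent evidence of it. Alternatives were quantile normalization or median centring of the arrays, a test of all probesets, removal of the dimmest 30% of genes, the mean of a gene's probesets, array weights, eBayes with trend and robust, the methods' one-way analysis of variance, a fit of the compared groups alone, a replicate block, an adjusted p below 0.10 and leaving out each array. Leaving out array 2 of the vehicle group together with array 2 of the 100 pM group was chosen after seeing the data.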

Additional observations from a re-analysis of the deposited data

How the results depend on the processing

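No collagen gene was called between 10 pM E2 and vehicle under any alternative that was run. For 100 pM E2 against vehicle, 5 collagen genes passed, and 2 did with all probesets tested, 3 with the replicate block (Col14a1, Col15a1 and Col8a1), 0 with the compared groups alone, 1 without the second vehicle and second 100 pM array together, and 1 to 4 with single arrays left out. The fewest came without vehicle array 1 (Col15a1) or 3 (Col8a1), and 2 without vehicle array 2. Over all genes 226 passed there, and 349, 10, 343, 76 and 365 did with trend and robust, the compared groups, the dimmest 30% left out, both second arrays left out and an adjusted p below 0.10, and 88 to 259 with single arrays left out. With all probesets tested, 119 of 35556 passed, which is a count of probesets and not of genes. For 100 pM against 10 pM E2, 2 collagen genes passed, and 1 did with all probesets, 4 with array weights, 5 with trend and robust, 0 with the compared groups, 6 with the dimmest 30% left out, 6 at an adjusted p below 0.10, and 1 to 3 with single arrays left out. For the F test 3 passed, and 1 did with all probesets, 6 with trend and robust, 1 with the analysis of variance, 1 with the replicate block (Col8a1), 6 with the dimmest 30% left out, 1 without both second arrays, 6 at an adjusted p below 0.10, and 1 to 2 with single arrays left out. In the non-monotonic contrast 0 passed, and 1 did (Col8a1) with trend and robust. Only genes whose 10 pM mean lay outside the range of the vehicle and 100 pM means were counted there. Apart from the analysis of variance, counts over all genes under the alternatives were made for 100 pM E2 against vehicle alone. The collagen counts of the other comparisons therefore cannot be set against a share of all genes. Testing more or fewer features changes the adjustment by construction, and for the other alternatives the cause was not tested. Whether same-numbered arrays belong together is not known, so the block is given for its effect on counts. It left the 100 pM against 10 pM count at 2 and brought the count over all genes for 100 pM E2 against vehicle from 226 to 168.

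Of 855 recomputed differences of named collagen genes, 773 kept their direction and side of the threshold and 47 no longer passed. Only differences that had passed could stop passing, and most of the 773 had not passed and stayed so. The Col3a1 call against vehicle was lost in 9 of 9 fits with an array left out and in 6 of 10 other settings. The Col8a1 call against 10 pM was lost in 0 of 9 and 1 of 10. Another 12 differences newly passed and 23 changed sign, all of the last in genes that had not passed that comparison. At 100 pM against vehicle these were Col1a1 with median centring (0.002722) and quantile normalization (0.0058), Col1a2 with median centring (0.01049) and without both second arrays (0.00725), Col5a1 (0.01575) and Col7a1 (0.003145) with median centring. At 100 pM against 10 pM they were Col1a2 (0.001402) and Col5a1 (0.004935) with median centring, and Col26a1 without both second arrays (-0.04245). With single arrays left out, the 100 pM difference from vehicle ranged from -0.03572 to 0.006483 for Col1a1, -0.02607 to 0.004633 for Col1a2, -0.004283 to 0.003467 for Col5a1 and -0.03819 to 0.01661 for Col7a1. That from 10 pM ranged from -0.0439 to 0.02219 for Col17a1, -0.008967 to 0.01018 for Col1a1, -0.02997 to 0.001533 for Col1a2, -0.04245 to 0.07323 for Col26a1 and -0.03307 to 0.02203 for Col5a1, and that of 10 pM from vehicle ranged from -0.02187 to 0.01468 for Col3a1. Differences of this size were not detectable with 3 arrays per group.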

Other observations

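Many genes carried exactly the same deposited value on more than 1 array. This held for 28 of the 44 collagen genes (63.6%), and for 14490 of all 19938 genes (72.7%).

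Relative to their group means, the 44 collagen genes had median deviations of 0.02, 0.00 and -0.02 on the log2 scale on vehicle arrays 1, 2 and 3. The medians were 0.01, 0.00 and -0.01 on the 10 pM arrays and 0.03, 0.01 and -0.03 on the 100 pM arrays. In every group array 1 was the highest and array 3 the lowest, and the cause was not tested. The corresponding medians over all genes were within 0.01 of 0. On the second 100 pM array the lowest deviation among the collagen genes was that of Col14a1 (-0.23), and on 100 pM array 3 it was that of Col9a3 (-0.25).

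The second probesets of Col6a5 and Col6a6 differed from the probesets used. For Col6a5 the 100 pM difference from vehicle was -0.14 at the second probeset, and for Col6a6 it was 0.04 there and -0.09 at the probeset used.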
